A study of Danio rerio with 8 samples.

Results

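Transcripts of cytokines, chemokines and their receptors were followed in adult zebrafish heart cells with and without Hmga1a overexpression. The genes were chosen by symbol alone: names of interleukins, CC and CXC chemokines, colony-stimulating factors, interferons and tumour necrosis factor (TNF) superfamily ligands, and of the receptors of each. Of 21234 genes in the deposited table, 108 had such a symbol, 58 of them ligands and 50 receptors. The 4 overexpression libraries came from fish labelled with the red cardiomyocyte reporter cmlc2:dsred and with Hmga1a overexpression, taken 14 days after the tamoxifen that induces it. The 4 control libraries came from cmlc2:dsred fish labelled control, at the same 14 days after tamoxifen. The cells of both groups are labelled cardiomyocytes and were released from unfixed ventricles with collagenase and TrypLE Express, and the study's design text calls these hearts uninjured. Which promoter or recombinase controls the overexpression, how cells were selected, and how many fish stand behind a library, the sources used here do not say, so p-values measure the spread between libraries, which may be partly technical.

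Cytokines are secreted or membrane-bound signals that cells of the immune system, vessel lining and connective tissue use to recruit and activate each other. Chemokines are small cytokines that direct cell movement through G protein-coupled receptors. Interleukin and interferon receptors act mostly through JAK kinases and STAT factors, and interleukin-1 and TNF receptors through NF-kB. In the zebrafish heart, signals of this kind are best known from the response to injury, when macrophages and neutrophils enter the wound.

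Total corrected transcript counts were 302157 to 572295 per overexpression library and 49598 to 352807 per control, where control 2 was the shallowest. In control 2 a single count is worth 30.2 CPM (counts scaled to a common library size), against 1.65 to 5.36 CPM in the other 7 libraries, so its low levels move in coarse steps. Mitochondrial RNA took 28.1% to 35.13% of counts with overexpression and 44.9% to 67.7% in controls, highest in control 2. The hmga1a transcript, the target, averaged 118.2 ± 24.8 CPM with overexpression and 73.1 ± 41.1 CPM in controls (SD, n = 4 each) and did not pass the test (log2 fold change 0.47 ± 0.30, SE, adjusted p = 0.177, edgeR). The labels do not say whether these counts include the whole transgene transcript. All levels below are CPM scaled by TMM, a factor that aligns the bulk of genes between libraries. A gene is called changed when its adjusted p over all 2501 genes tested lies under 0.05 in edgeR's quasi-likelihood test.

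Of the 108 genes, 24 were abundant enough to be tested, 10 ligands and 14 receptors. With overexpression 22 of them fell and 0 rose, and the other 2, the receptors cxcr3.2 and il10rb, did not pass. Over all genes tested, 59.6% were called, 29.2% lower and 30.4% higher. With library totals alone in place of TMM, 19 of the 24 were lower and 0 higher, beside 19.2% lower and 38.5% higher over all genes. With libraries scaled on cardiomyocyte markers all 24 were lower, beside 54.7% lower and 5.44% higher over all genes. Higher calls made up 51% of all calls under TMM, against 66.8% and 9.04% under these other scalings, which moved the median of all genes to 0.38 and -1.01. DESeq2 also called 22 of the 24 lower and 0 higher, beside 656 lower and 695 higher over all 2501 genes. At an unadjusted p under 0.05 edgeR had 23 lower and 0 higher, and the share of all genes at that threshold is not given here. The 22 genes were all at least 2-fold lower in the fit, which held for 23.3% of all genes. All 10 tested ligands fell, with a median of -2.66 on the log2 scale, and 12 of 14 receptors, with a median of -1.65, beside a median of 0.01 over all genes. The difference between ligands and receptors was not tested, and the distance between their medians depended on the filter. Without a filter the fitted medians were -1.66 for 42 ligands and -1.45 for 40 receptors, beside -0.14 over all genes. With genes at 0 throughout 1 group set at the bound that 3 counts allow, or left out where the other group had no more than 3 counts, the medians were -1.69 for 38 ligands and -1.40 for 35 receptors, beside -0.26 over all genes. In 18 of the 24 genes every overexpression library lay below every control, which held for 17.7% of all genes tested. For several of these genes the control 2 level rests on few counts, such as 1 for cxcl19, 2 for il6st and 3 for cxcr3.3.

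**Figure D1:**
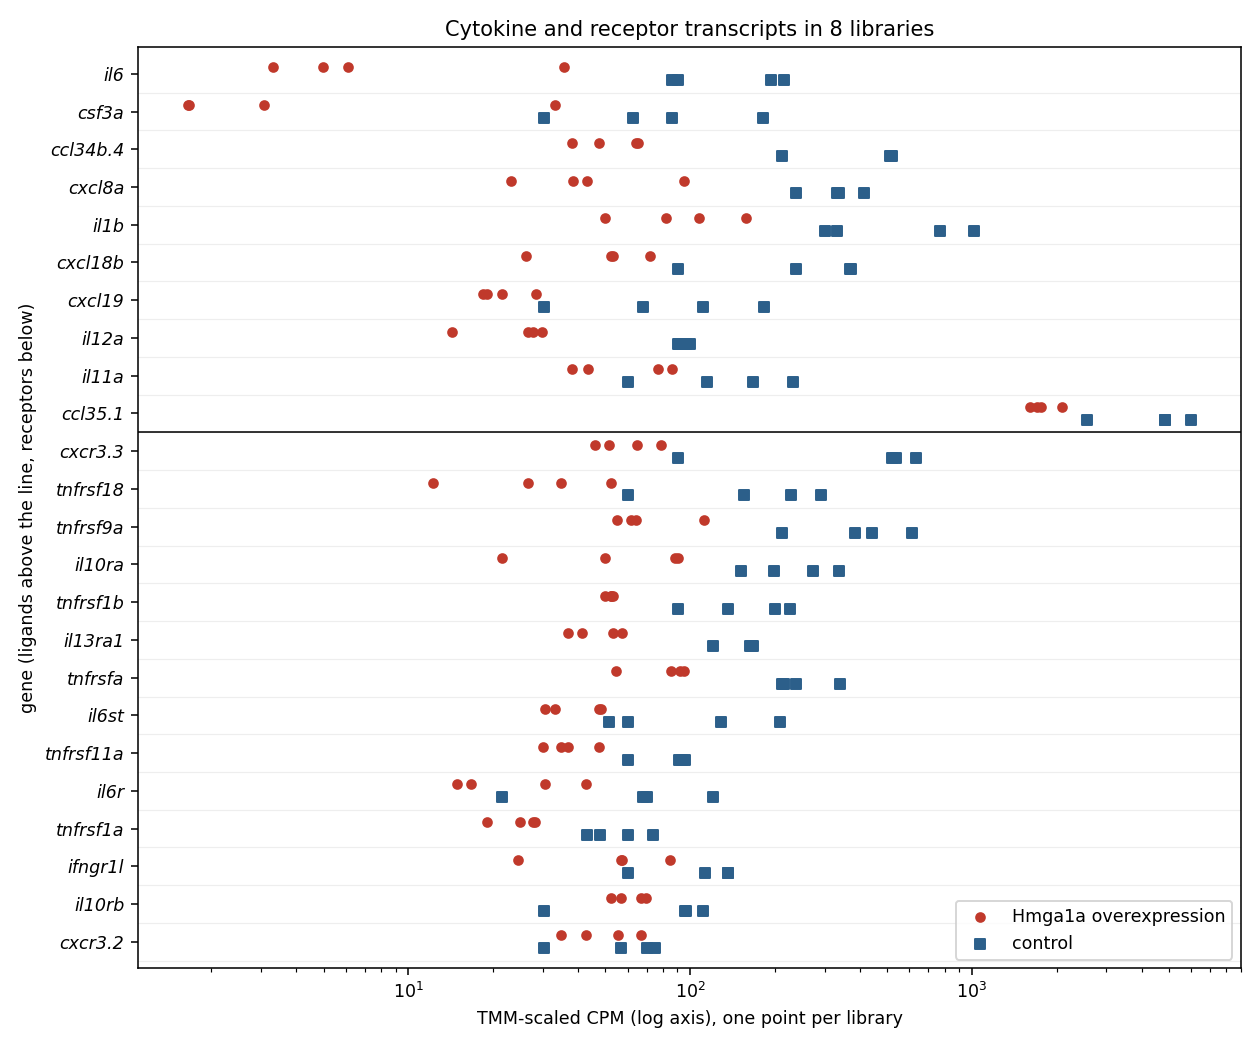
Level of each tested gene in each library (TMM-scaled CPM, log axis), with Hmga1a overexpression as circles above and controls as squares below. In 18 of 24 genes the circles all lie left of the squares; the exceptions are csf3a, il11a, il6r, ifngr1l, il10rb and cxcr3.2.

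The filter on low counts keeps a gene that reaches 28.7 CPM of the library total in about 4 libraries, so a gene can pass through the group in which it is high. This level is not scaled by TMM, unlike the gene levels given here. Among the 24, 10 had fewer than 4 overexpression libraries over that level and so passed only with the help of controls. These were the ligands csf3a, cxcl8a, cxcl19, il6 and il12a and the receptors ifngr1l, il10ra, il6r, tnfrsf18 and tnfrsf1a. The other 14 reached it in all 4 overexpression libraries, and 12 of these 14 fell and 0 rose. By class, 5 of these 5 ligands and 7 of these 9 receptors fell. Over all genes with all 4 overexpression libraries over the level, 21.5% were called lower and 40.4% higher. A filter on the mean of all 8 libraries, chosen after seeing the data, tested 26 of the genes and called 24 lower and 0 higher, beside 29.5% lower over all genes.

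The summed levels show the same difference without any filter. The tested genes make up most of each sum, however, so the sums are not a separate result. All 58 ligands together held 2312, 2563, 2199 and 2021 CPM in overexpression libraries 1 to 4, against 8059, 4158, 7545 and 9401 CPM in controls 1 to 4. Most of this is 1 gene, the CC chemokine ccl35.1, which made up 78.5% of ligand counts with overexpression and 62.4% in controls on average. The control mean of the 58 ligands was 3.21 times the overexpression mean. The other 57 ligands held 415.9 to 554.7 CPM with overexpression and 1599 to 3417 CPM in controls, so that the control mean was 5.62 times the overexpression mean. The 50 receptors held 613.4 to 954.1 CPM with overexpression and 1539 to 3177 CPM in controls, with a control mean 3.49 times the overexpression mean, so the order of ligands and receptors in this ratio depends on whether ccl35.1 is counted. No overexpression library reached the lowest control, control 2, in any of these sums. In the same libraries the summed level of leukocyte markers was 1472 to 2208 CPM with overexpression and 3769 to 6753 CPM in controls, and its part in the result was not tested. In bulk samples, fewer cells of a type and less RNA per cell cannot be told apart.

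**Figure D2:**
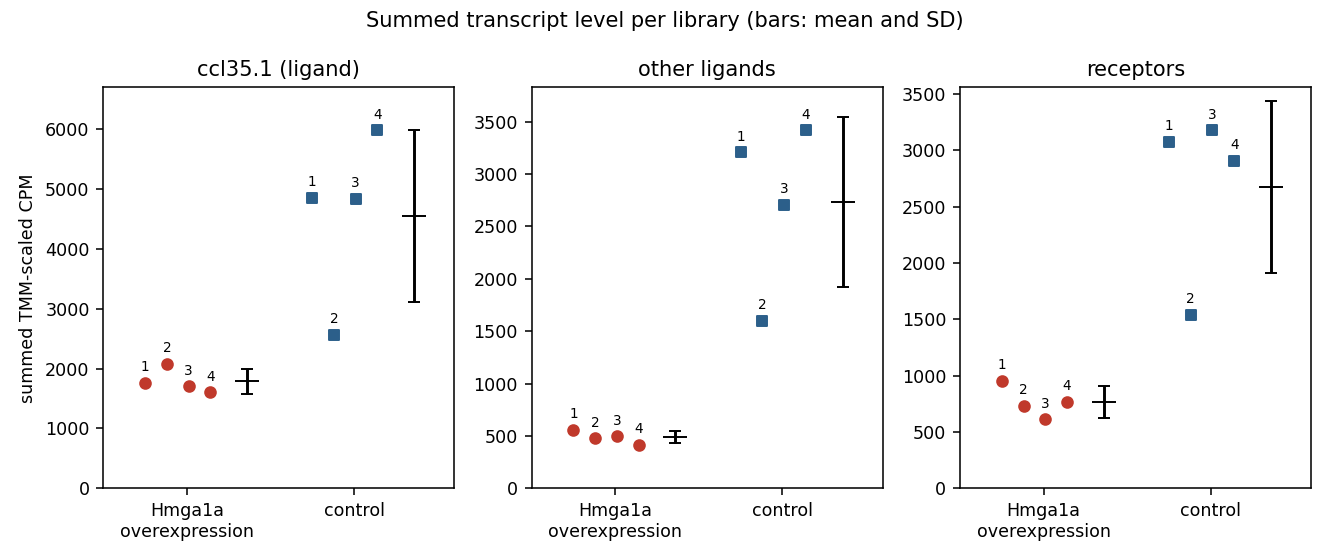
Summed level per library of ccl35.1, of the other ligands and of the receptors (TMM-scaled CPM), with libraries numbered and bars for mean and SD. Overexpression libraries lie between 415.9 and 554.7 CPM for the other ligands, against 1599 to 3417 CPM in controls; control 2 is the lowest control in each panel.

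Among CXC chemokines, cxcl8a, cxcl18b and cxcl19 were tested and all fell. The gene cxcl8a, the counterpart of the human neutrophil attractant interleukin-8, was at 95.3, 38.3, 42.9 and 23.2 CPM in overexpression libraries 1 to 4, against 415, 332, 237 and 338 CPM in controls 1 to 4. Its lowest control, control 3, lay above its highest overexpression library, library 1 (log2 fold change -2.80 ± 0.30, SE, adjusted p = 1.5e-08, edgeR). The fish chemokine cxcl18b, which attracts neutrophils in zebrafish, was at 26.1, 71.7, 52.1 and 53.1 CPM in overexpression libraries 1 to 4, against 368, 90.5, 373 and 237 CPM in controls 1 to 4. Its groups did not overlap either, although control 2, on 3 counts, was far below the other controls (-2.54 ± 0.28, adjusted p = 1.4e-08, edgeR). The level of cxcl19 was 21.8 ± 4.53 CPM with overexpression and 98 ± 65.5 CPM in controls (SD, n = 4 each), with a log2 fold change of -2.26 ± 0.37 (adjusted p = 6.6e-06, edgeR). Its lowest control, control 2, lay just above its highest overexpression library, at 30.2 against 28.3 CPM, and rests on a single count. Only 1 overexpression library was over the filter's level for cxcl19, counted in CPM of the library total without TMM.

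The CC chemokines are the largest ligand family here, with 22 genes, of which 6 had no count in any library and 2 were tested. The gene ccl35.1 stood at 1758, 2085, 1702 and 1605 CPM in overexpression libraries 1 to 4, against 4851, 2559, 4839.7 and 5984 CPM in controls 1 to 4. Its overexpression libraries were close together and all below control 2, the lowest control (-1.38 ± 0.17, adjusted p = 1.1e-07, edgeR). The gene ccl34b.4 stood at 47.5, 65, 64.4 and 38.1 CPM in overexpression libraries 1 to 4, against 518, 211, 520.2 and 512 CPM in controls 1 to 4. Its fitted change was larger than that of ccl35.1 (-3.17 ± 0.24, adjusted p = 4.3e-12, edgeR), with 3 controls within a narrow band and control 2 below it. The difference between the 2 genes was not tested. Zebrafish CC chemokine genes lie in families of close copies, and how reads shared between copies were counted is not known, so each count may include reads of a neighbour.

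Of 13 interleukin genes, 4 were tested and all fell. The level of il6, the fever and acute-phase cytokine, was 35.6, 3.32, 6.12 and 4.96 CPM in overexpression libraries 1 to 4, against 194, 90.5, 85.8 and 215 CPM in controls 1 to 4. Overexpression library 1 held several times the level of the other 3, yet stayed below every control (-3.77 ± 0.50, adjusted p = 2.4e-06, edgeR). As corrected counts these values were 15, 2, 2 and 3 in overexpression libraries 1 to 4, against 68.6, 3, 16 and 58.4 in controls 1 to 4, so the 3 lowest rest on 2 or 3 molecules each. Without overexpression library 1 the log2 fold change of il6 was -5.04. The gene il1b, the early inflammatory cytokine processed by the inflammasome, was at 158, 81.8, 108 and 49.7 CPM in overexpression libraries 1 to 4, against 769, 332, 302 and 1019 CPM in controls 1 to 4. Controls 1 and 4 were high and controls 2 and 3 lower, and all 4 lay above the overexpression libraries (-2.77 ± 0.46, adjusted p = 0.00076, edgeR). The order of the controls was alike in il6, where controls 1 and 4 were again the higher pair.

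The gene il12a encodes a subunit of interleukin-12 and varied little among controls, at 14.2, 26.6, 27.6 and 29.8 CPM in overexpression libraries 1 to 4, against 90.9, 90.5, 96.6 and 99.6 CPM in controls 1 to 4. The control 2 value rests on 3 counts, so the closeness of the controls is uncertain. The groups did not overlap, and the change was -1.92 ± 0.34 (adjusted p = 1.6e-05, edgeR). The genes of the partner subunit, il12ba and il12bb, had 0 counts in every library. A count of 0 allows up to 3 counts per library, which is 4.96 to 9.18 CPM with overexpression and 8.49 to 90.5 CPM in controls. The cytokine gene il11a, whose product signals through il6st and which promotes regeneration in zebrafish, was at 38, 43.3, 76.8 and 86.4 CPM in overexpression libraries 1 to 4, against 231, 60.3, 167 and 114 CPM in controls 1 to 4. Here control 2 lay below overexpression libraries 3 and 4, so the groups overlapped, while the test called a fall (-1.42 ± 0.31, adjusted p = 0.00026, edgeR).

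Of the colony-stimulating factors, csf3a passed the filter. It encodes a granulocyte colony-stimulating factor, which drives the production of neutrophils. Its level was 33.3, 1.66, 3.06 and 1.65 CPM in overexpression libraries 1 to 4, against 62.4, 30.2, 85.8 and 181 CPM in controls 1 to 4. Overexpression library 1 lay above control 2, while the other 3 overexpression libraries held a single count each (-3.46 ± 0.71, adjusted p = 0.00089, edgeR). Without overexpression library 1 its log2 fold change was -5.46, and without control 4 it was -2.86. Its copy csf3b was too sparse for the test, with corrected counts of 8.01, 5, 4 and 4 in overexpression libraries 1 to 4, against 14, 1, 5 and 14 in controls 1 to 4.

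**Figure D3:**
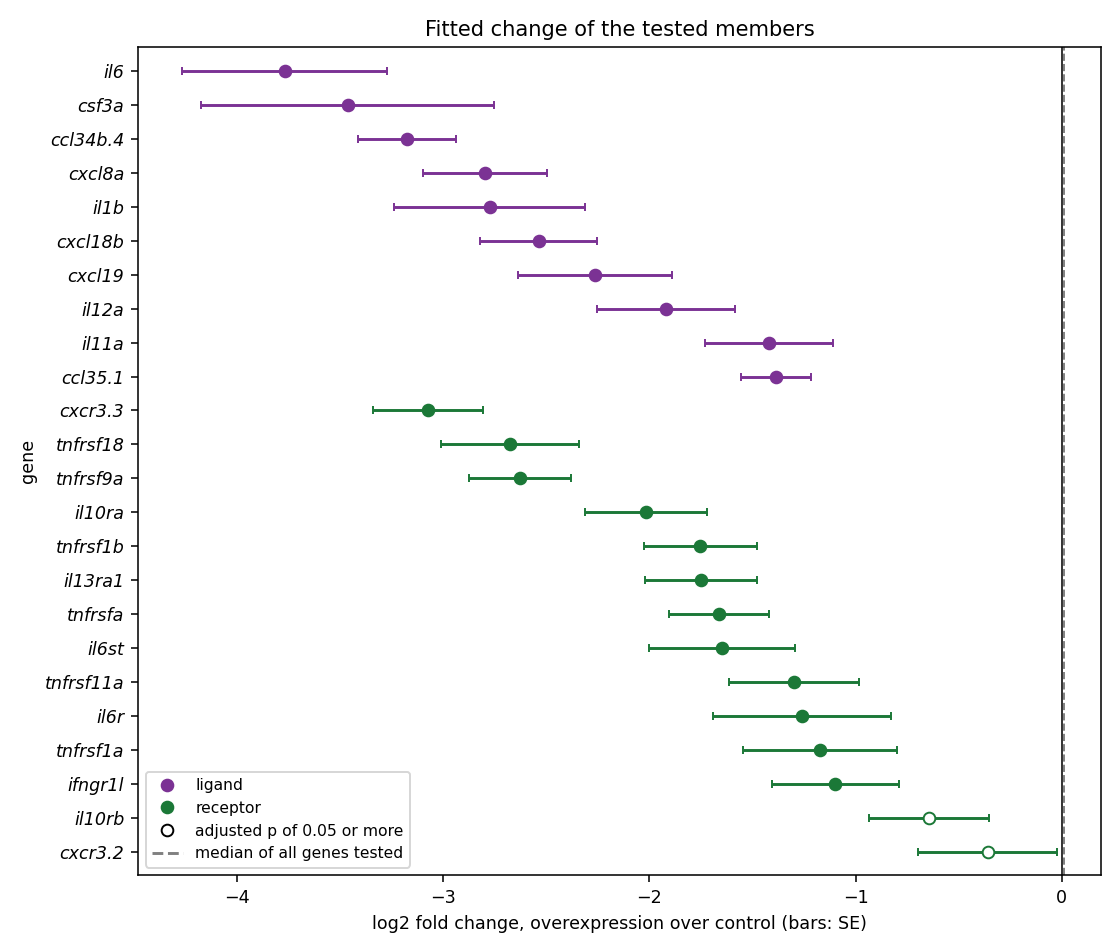
Log2 fold change of each tested gene, overexpression over control, with SE bars; ligands above, receptors below, open symbols where the adjusted p was 0.05 or more. All 24 estimates are negative in the fit as reported, from -3.77 for il6 to -0.36 for cxcr3.2, which turns to 0.02 with library totals alone.

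The chemokine receptors were measured less evenly. The gene cxcr3.3, whose product in zebrafish macrophages takes up chemokines without signalling in the usual way, was at 78.6, 51.6, 46 and 64.7 CPM in overexpression libraries 1 to 4, against 539, 90.5, 520.2 and 635 CPM in controls 1 to 4. It was high in 3 controls, and control 2, on 3 counts, lay only slightly above the highest overexpression library (-3.07 ± 0.27, adjusted p = 3.3e-10, edgeR). Its signalling relative cxcr3.2, which guides zebrafish macrophages, was at 42.8, 66.7, 55.2 and 34.8 CPM in overexpression libraries 1 to 4, against 56.7, 30.2, 75.1 and 70 CPM in controls 1 to 4. These values overlapped and the difference did not pass (-0.36 ± 0.34, adjusted p = 0.367, edgeR; 0.02 with library totals alone). The third copy, cxcr3.1, had corrected counts of 2, 1, 0 and 0 in overexpression libraries 1 to 4, against 16, 0, 8.01 and 5 in controls 1 to 4, too few for the test. Close copies may share reads, so the split between these 3 genes is uncertain.

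Among the 21 interleukin receptor genes, il10ra, il13ra1, il6st and il6r fell and il10rb did not pass. The gene il10ra encodes the chain that binds interleukin-10, an anti-inflammatory cytokine, and was at 90.5, 50, 21.4 and 88.1 CPM in overexpression libraries 1 to 4, against 272, 151, 199 and 338 CPM in controls 1 to 4 (-2.02 ± 0.30, adjusted p = 1.6e-06, edgeR). Its partner chain gene il10rb, which in mammals also serves interleukin-22 and interferon lambda, was at 66.6, 56.7, 52.1 and 69.7 CPM in overexpression libraries 1 to 4, against 111, 30.2, 96.6 and 95.9 CPM in controls 1 to 4. Control 2, with a single count, was the lowest of its 8 libraries, and controls 1, 3 and 4 lay above every overexpression library (-0.64 ± 0.29, adjusted p = 0.056, edgeR). Without control 2 it passed as lower (adjusted p = 0.0252, edgeR), as it did in the same fit to the authors' 6 libraries (adjusted p = 0.0319, edgeR). In the authors' deposited table, il10rb has a log2 fold change of -0.45 with an adjusted p of 0.269 and is not marked.

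The gene il6st encodes gp130, the signalling chain shared by the interleukin-6 and interleukin-11 receptors, and was at 47.5, 48.3, 30.6 and 33.1 CPM in overexpression libraries 1 to 4, against 208, 60.3, 129 and 51.6 CPM in controls 1 to 4. Controls 2 and 4 lay just above the overexpression libraries and controls 1 and 3 well above (-1.65 ± 0.35, adjusted p = 0.00023, edgeR). The control 2 value rests on 2 counts. Without control 1 its log2 fold change was -1.05 (adjusted p = 0.0299, edgeR). The gene il6r, of the chain that binds interleukin-6, averaged 26.2 ± 13.1 CPM with overexpression and 70.1 ± 40.5 CPM in controls (SD, n = 4 each), and its groups overlapped (-1.26 ± 0.43, adjusted p = 0.013, edgeR). It lost its call without control 1 (adjusted p = 0.0657, edgeR), without control 4 (adjusted p = 0.0553, edgeR) and with library totals alone (adjusted p = 0.1005, edgeR). The gene il13ra1, of a chain of the interleukin-4 and interleukin-13 receptors in mammals, averaged 47.1 ± 9.61 CPM with overexpression and 154 ± 22.2 CPM in controls, with no overlap (-1.75 ± 0.27, adjusted p = 2.7e-06, edgeR).

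The TNF receptor superfamily was the family with the largest tested share, 6 of 9 genes. All 6 fell with no overlap between the groups, which held for 17.7% of all genes tested. Control 2 held only 2 counts for tnfrsf18, tnfrsf1a and tnfrsf11a and 3 for tnfrsf1b. For tnfrsf18 it stood at 60.3 CPM, against 52.3 CPM in overexpression library 1. Both tnfrsf18 and tnfrsf1a had fewer than 4 overexpression libraries over the filter's level. The gene tnfrsf9a, related to the T cell costimulatory receptor CD137 of mammals, was at 112, 55, 64.4 and 61.4 CPM in overexpression libraries 1 to 4, against 441, 211, 614 and 384 CPM in controls 1 to 4 (-2.63 ± 0.25, adjusted p = 4.8e-10, edgeR). Its highest overexpression library, library 1, lay well below its lowest control, control 2. The gene tnfrsf18, whose mammalian counterpart GITR marks regulatory T cells, averaged 31.5 ± 16.7 CPM with overexpression and 184 ± 99.3 CPM in controls (SD, n = 4 each; -2.67 ± 0.33, adjusted p = 8.6e-08, edgeR). The 2 receptors for TNF itself fell by different fitted amounts, a difference that was not tested. The gene tnfrsf1b was at 52.3, 53.3, 52.1 and 49.7 CPM in overexpression libraries 1 to 4, against 137, 90.5, 226 and 199.9 CPM in controls 1 to 4. Its 4 overexpression libraries were nearly equal, and its log2 fold change was -1.75 ± 0.27 (adjusted p = 3.0e-06, edgeR). For tnfrsf1a, whose product carries a death domain in mammals, the levels were 24.9 ± 4.19 CPM with overexpression and 56.2 ± 13.8 CPM in controls (SD, n = 4 each) and the change -1.17 ± 0.37 (adjusted p = 0.00822, edgeR), a call that was lost without control 1 (adjusted p = 0.104) and with library totals alone. The gene tnfrsf11a, for RANK, the receptor that drives osteoclast formation, averaged 37.3 ± 7.44 CPM with overexpression and 85.3 ± 16.8 CPM in controls (SD, n = 4 each; -1.30 ± 0.32, adjusted p = 0.0008, edgeR). The gene tnfrsfa averaged 81.8 ± 18.6 CPM with overexpression and 251 ± 60.6 CPM in controls (SD, n = 4 each; -1.66 ± 0.24, adjusted p = 9.7e-07, edgeR).

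The interferon gamma receptor gene ifngr1l was at 57.1, 56.7, 24.5 and 84.8 CPM in overexpression libraries 1 to 4, against 137, 60.3, 113 and 137 CPM in controls 1 to 4, with overexpression library 4 above control 2 (-1.10 ± 0.31, adjusted p = 0.00305, edgeR). With library totals alone it did not pass (adjusted p = 0.0706). No interferon gene had a count: ifnphi1 and ifnphi2 were at 0 in all 8 libraries, under the same limit of 3 counts per library as above.

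The remaining 84 genes did not pass the filter. Of these, 26 had no count in any library, 28 had counts in 1 to 3 libraries (at most 11 in sum), and 30 had counts in at least 4. Of the last 30, mean CPM was lower with overexpression in 27 and higher in 3. The same count over other sparse genes is not given here, and a single count in control 2 is worth 30.2 CPM. In the fit without a filter, 68 of the 82 members with a count had negative fold changes, beside 52.7% of all genes with a count. The 3 higher genes were tnfsf13b, the B cell survival factor BAFF, il1rapl1a, a relative of the interleukin-1 receptor that acts at synapses in mammals, and ccr2. The level of tnfsf13b averaged 16.2 ± 5.18 CPM with overexpression and 13.4 ± 12.7 CPM in controls (SD, n = 4 each), with summed corrected counts of 31 with overexpression, against 16 in controls, from libraries of unequal depth. The level of il1rapl1a averaged 6.41 ± 8.64 CPM with overexpression and 3.67 ± 2.60 CPM in controls, its overexpression counts lying mostly in library 1, and that of ccr2 averaged 4.20 ± 3.33 CPM with overexpression and 4.09 ± 5.16 CPM in controls. Without a filter the fitted log2 fold changes were 0.05 for tnfsf13b (adjusted p = 0.970, edgeR), 0.61 for il1rapl1a (adjusted p = 0.693, edgeR) and 0.03 for ccr2 (adjusted p = 0.993, edgeR), and none passed.

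A pair of sparse chemokines had high counts in a few controls only. The gene cxcl12a, whose product guides migrating cells through Cxcr4, had corrected counts of 0, 3, 2 and 2 in overexpression libraries 1 to 4, against 0, 2, 53.3 and 21.1 in controls 1 to 4. Most of its control sum came from control 3, and control 1 had none, so the controls disagree among themselves. The gene cxcl32b.1 had 0, 3, 4 and 0 in overexpression libraries 1 to 4, against 52.3, 0, 9.01 and 16 in controls 1 to 4. Both passed with the filter on the mean of all libraries. In 5 of the 30 every overexpression library was below every control: csf3b, il11b, il12rb2, tnfrsf21 and il21. Over all 5537 genes outside the filter with counts in at least 4 libraries this held for 4.86%. The gene il11b, the copy of il11a, had corrected counts of 5, 7.01, 5 and 8.01 in overexpression libraries 1 to 4, against 7.01, 1, 12 and 12 in controls 1 to 4. The gene il12rb2, of a chain of the interleukin-12 receptor, had 1, 1, 0 and 0 in overexpression libraries 1 to 4, against 4, 1, 5 and 5 in controls 1 to 4. The gene tnfrsf21, for a death receptor, had 4, 0, 0 and 1 in overexpression libraries 1 to 4, against 8.01, 4, 5 and 3 in controls 1 to 4. In control 2 each of these values is 4 counts or fewer. Of the other sparse ligands, il34, a ligand of the macrophage growth factor receptor Csf1r, had summed counts of 8 with overexpression, against 33.1 in controls. The T cell cytokine gene il21 had 17 with overexpression, against 45.1 in controls, and tnfsf10, for the death ligand TRAIL, had 4 with overexpression, against 19 in controls. None of the 9 TNF superfamily ligands under the symbol rule was abundant enough for the test. Among sparse receptors, ccr9a, for the receptor that directs lymphocytes to the gut in mammals, had the highest summed counts, 25 with overexpression, against 49.1 in controls.

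**Figure D4:**
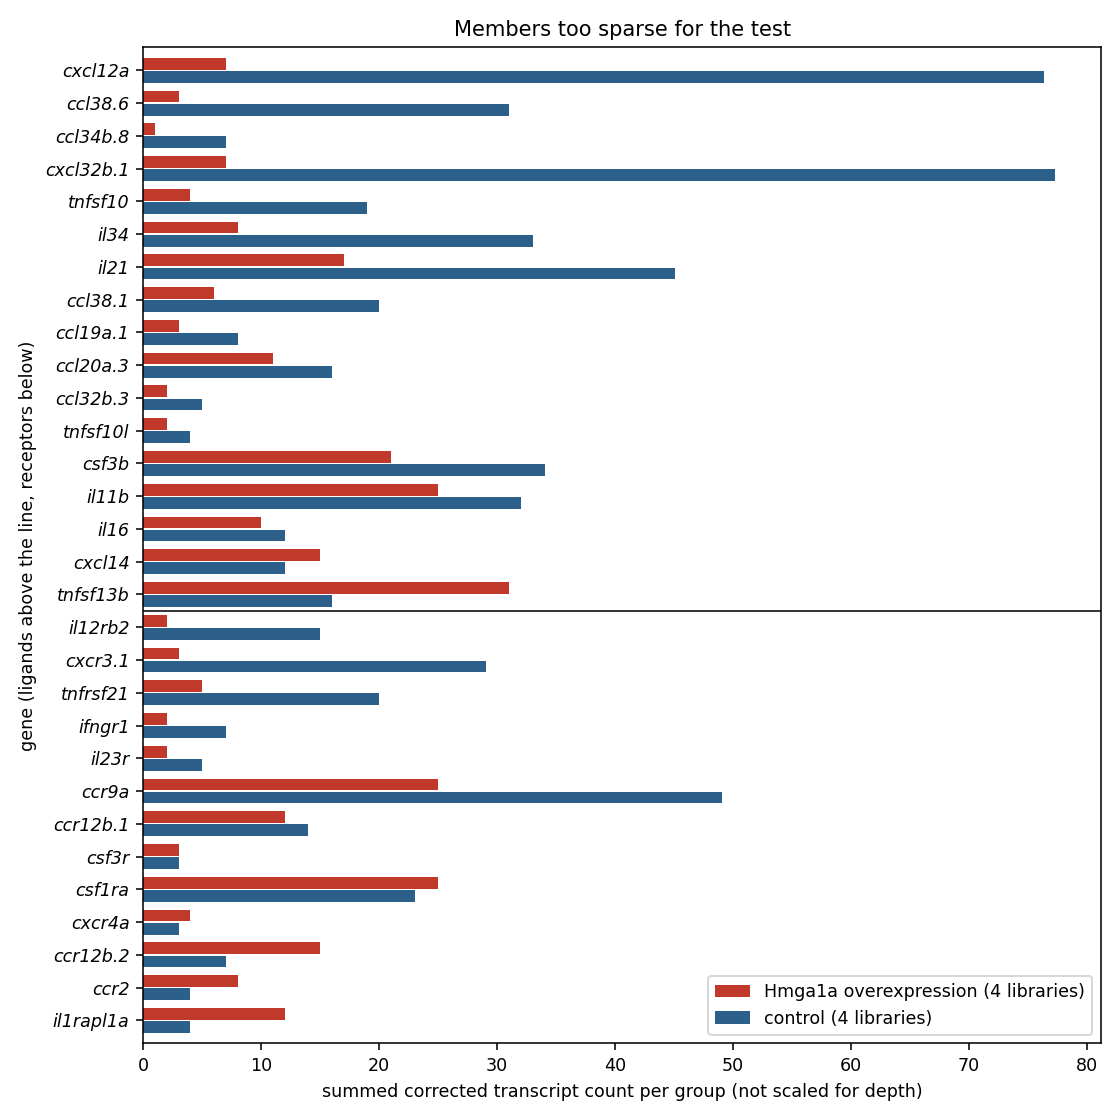
Summed corrected counts of the 30 genes with counts in at least 4 libraries that were too sparse for the test, overexpression above control for each gene; groups are not scaled for depth, and the overexpression libraries are deeper. The largest control sums are those of cxcl32b.1 and cxcl12a, at 77.4 and 76.4, beside 7 each with overexpression.

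Ligands and receptors that pair with each other were not measured equally well. For interleukin-6 all 3 genes, il6, il6r and il6st, were tested and fell. Of these, il6 and il6r passed the filter only with the help of controls, as did cxcl8a and csf3a below. For interleukin-8, cxcl8a fell, while the receptor gene cxcr1 had corrected counts of 0, 0, 0 and 0 in overexpression libraries 1 to 4, against 6, 0, 1 and 4 in controls 1 to 4. For granulocyte colony-stimulating factor, csf3a fell, while the receptor gene csf3r averaged 1.599 CPM with overexpression and 2.97 CPM in controls, on 3 counts in each group. For il34, the receptor gene csf1ra averaged 11.96 CPM with overexpression and 20.3 CPM in controls. For cxcl12a, the receptor gene cxcr4a averaged 2.01 ± 2.45 CPM with overexpression and 2.75 ± 3.18 CPM in controls, on 4 counts with overexpression and 3 in controls. In the fit without a filter cxcr1 was called lower (adjusted p = 0.00299, edgeR), while csf1ra, csf3r and cxcr4a had negative fold changes that did not pass (adjusted p = 0.353, 0.672 and 0.799, edgeR). The difference between a ligand and its receptor was not tested.

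Without any filter, 82 of the 108 genes had a value in the fit, and 33 were called lower and 0 higher, beside 7.66% lower and 6.91% higher over all 13443 genes with a count. Of the 33, 18 were ligands. Genes called there and not above included ccr9a, ccl38.6, cxcr1, il34 and il21, while ifngr1l, tnfrsf1a and il6r were not called. Adjusted p in edgeR is not comparable between the fits with and without a filter, as it moved both ways. For il1b it went from 0.00076 to 2.9e-16, and for tnfrsf11a from 0.0008 to 0.0351.

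Genes of the pathways downstream were read from lists written with earlier results of these data known. Over all genes tested 29.2% were called lower and 30.4% higher, and the lists were not split by the filter as the members were. Of 17 tested genes of NF-kB and its adaptors, 14 fell and 0 rose (median -1.81). The feedback inhibitor gene tnfaip3 (-3.28 ± 0.22), the subunit gene nfkb2 (-3.39 ± 0.33) and the inhibitor gene nfkbiaa (-2.68 ± 0.29) had the smallest p. Among the 14, nfkb2, tnip2, traf3 and irak1 averaged 19.7, 11.5, 17.2 and 17.6 TMM-scaled CPM with overexpression. These averages lie under the filter's level of 28.7 CPM of the library total, so these genes passed only with the help of controls. The same holds for ikbkg. With overexpression it averaged 29.0 ± 14.1 CPM (SD), a spread too wide for every library to have reached that level. Of 6 tested JAK, STAT and SOCS genes, 2 fell and 0 rose: the kinase gene jak1 (-1.51 ± 0.20) and stat1a (-0.90 ± 0.22). The others did not pass, among them stat4 at 0.79 ± 0.39 (adjusted p = 0.0783, edgeR). All 5 tested interferon regulatory and response genes fell (median -1.98), including irf1b (-2.94 ± 0.33) and mxc, of the antiviral Mx family (-2.53 ± 0.44). With overexpression irf2, irf1b, mxc and psmb8a averaged 10.2, 22.4, 13.7 and 22.9 TMM-scaled CPM. These averages lie under the filter's level of 28.7 CPM of the library total. These interferon genes therefore passed the filter only with the help of controls, while stat1a averaged 163.5 CPM. Of 5 tested cytokine and receptor genes outside the symbol rule, 4 fell: crfb15 (-2.89 ± 0.22), cd40, a TNF receptor family member of antigen-presenting cells (-2.89 ± 0.23), a TNF gene, tnfb (-2.58 ± 0.23) and ackr3b, a scavenger receptor for Cxcl12 (-1.89 ± 0.41). With overexpression ackr3b averaged 19.7 CPM, under the filter's level, so it too passed only with the help of controls. The growth factor gene tgfb3 was at 0.61 ± 0.27 and did not pass (adjusted p = 0.0504, edgeR). No tested gene of these 4 lists rose in edgeR.

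Markers of several cell types moved in the same libraries, beside 29.2% of all tested genes called lower and 30.4% higher. These lists were not split by the filter either. With overexpression wasb, c1qa and runx3 averaged 7.17, 27.2 and 19.3 TMM-scaled CPM, under the filter's level of 28.7 CPM of the library total. The same held for flt1, fli1a, klf2b and vwf, at 15.9, 20.9, 24.1 and 25.4 CPM. All of these fell, and they passed the filter only with the help of controls. The summed level of 13 cardiomyocyte markers was 30399 to 39768 CPM with overexpression and 14514 to 20982 CPM in controls, with 9 of 12 tested genes higher and the giant sarcomere genes ttn.1 and ttn.2 and the calcium channel gene ryr2b lower. Scaling on these markers evens out their sum by construction, so the direction of the smaller changes depends on the scaling. The cardiomyocyte marker myl7, whose promoter is also known as cmlc2, had 1 count in all libraries together. All 6 tested leukocyte markers fell (median -1.58), led in level by cd74a. The leukocyte markers coro1a and tyrobp were at 0 in every library. All 6 tested macrophage markers fell (median -1.97), among them c1qa, c1qb and mpeg1.1, which relied on controls to pass the filter. The list had sums of 220.8 to 376.0 CPM with overexpression and 422.3 to 1497 CPM in controls, while mfap4, ctss2.2, grn1 and lgals3bpb were at 0. Of 2 tested neutrophil markers, srgn fell (-1.47 ± 0.20) and mmp9 did not pass (-0.66 ± 0.80), and mmp13a was at 0; summed neutrophil levels were 187.8 to 351.9 CPM with overexpression and 331.9 to 862.8 CPM in controls. The granule genes mpx and lyz, which define neutrophils, had 2 counts and 1 count in all libraries together. The T and NK cell marker runx3 fell (-1.45 ± 0.43), with list sums of 16.5 to 28.3 CPM with overexpression and 30.2 to 88.4 CPM in controls. All 7 tested endothelial and endocardial markers fell (median -2.18). Of these only spock3, at 102.4 ± 6.15 CPM with overexpression (SD), did not rely on controls to pass the filter. The list had sums of 236.2 to 298.4 CPM with overexpression and 966.1 to 1792 CPM in controls, while cdh5 was at 0. Both tested fibroblast markers fell (median -2.58), with sums of 152.4 to 212.1 CPM with overexpression and 802.1 to 1711 CPM in controls. Of 5 tested epicardial markers 3 fell (krt8, krt18a.1 and krt4) and 1 rose (anxa2a), with tbx18 at 0. Epicardial sums were 3507 to 3766 CPM with overexpression and 3928 to 4562 CPM in controls. These sums join opposite changes. With overexpression anxa2a averaged 2318 CPM and krt8 762 CPM, against 901 and 2168 CPM in controls. No thrombocyte marker was abundant enough for the test, and the B cell and erythrocyte markers in the table were at 0 throughout. The part of these cell types in the fall of the cytokine genes was not tested.

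**Figure D5:**
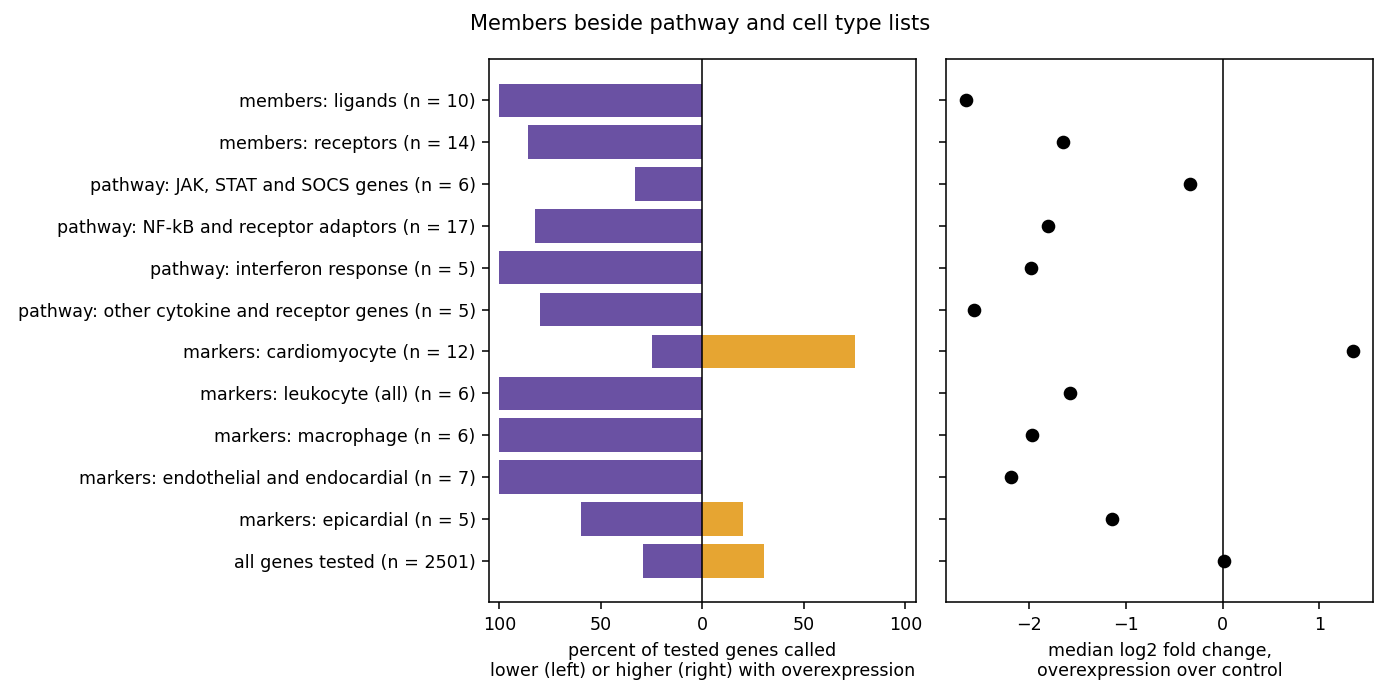
Share of tested genes called lower or higher with overexpression (left) and median log2 fold change (right) for ligands, receptors, pathway lists and cell type markers with at least 5 tested genes, with all genes at the bottom. Among genes that passed the filter the ligand median was -2.66 and the receptor median -1.65 (-1.66 and -1.45 without the filter). Marker medians were -1.58 for leukocyte, -1.97 for macrophage, -2.18 for endothelial and endocardial and -1.14 for epicardial lists. Cardiomyocyte markers lie on the other side of 0. Neither the members nor the lists are split by the filter here, and several of their genes passed only with the help of controls.

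Set against the leukocyte markers in the same library, the cytokine and receptor genes without ccl35.1 held 0.741, 0.614, 0.755 and 0.537 times the summed leukocyte level in overexpression libraries 1 to 4, against 1.02, 0.832, 0.945 and 0.936 times in controls 1 to 4. Each control lay above each overexpression library in this ratio. With ccl35.1 counted the groups overlapped, at 1.604, 1.67, 1.91 and 1.26 times in overexpression libraries 1 to 4, against 1.80, 1.51, 1.72 and 1.82 times in controls 1 to 4, with overexpression library 3 the highest of all 8. Set against the macrophage markers the ratio without ccl35.1 was 3.25 to 5.03 with overexpression and 4.20 to 7.43 in controls, and the groups overlapped, as they did with ccl35.1. The leukocyte sum is mostly cd74a and cd74b, so these ratios depend on which markers and which members are used.

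The authors' deposited table compares 3 overexpression with 3 control libraries, whose counts equal overexpression libraries 2, 3 and 4 and controls 1, 3 and 4 in 100% of values, so it rests on the same data. The authors' deposited table lists 54 of the 108 genes, of which 37 are marked down and 0 up, beside 15% marked down and 16% marked up of its 7998 genes. At an adjusted p under 0.05, the authors' deposited table has 33 of the 54 lower and 0 higher. The share of all its genes at that threshold is not given here. The marks follow another criterion, as il6r is marked down with an adjusted p of 0.103 in the authors' deposited table. Of the 37, 17 were too sparse for the test used here. They include, in the authors' deposited table, cxcr3.1 (log2 fold change -4.94, adjusted p = 3.3e-06), tnfrsf21 (-4.11, 0.00075) and il12rb2 (-3.96, 0.00106). For the genes marked down, the authors' deposited enrichment table gives cytokine-mediated signaling with 15 genes (4.25-fold enriched, adjusted p = 0.00203). The authors' deposited enrichment table gives cytokine receptor activity with 12 genes (4.53-fold, adjusted p = 0.0175) and cytokine activity with 20 genes (2.67-fold, adjusted p = 0.0267). Chemokine activity, with 10 genes, is 3.65-fold enriched there, with an adjusted p of 0.0754 in the authors' deposited enrichment table.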

How the data were processed

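For each of 8 libraries the authors deposited estimated counts per gene, which are not whole. Inverting the usual correction for repeated use of 4096 molecular identifiers gave whole numbers for 100% of non-zero values (tolerance 0.01). The submitters' processing notes name danRer11 as build and edgeR as tool. Aligner, counting program, annotation and use of strand are not stated there or in the labels. Per the file headers, the authors' deposited comparison holds log2 fold changes, p-values and adjusted p-values for 3 libraries per group; its count columns were matched to libraries with a tolerance of 1e-06. The authors' deposited enrichment table gives fold enrichment per gene ontology term. Per-sample columns of other sheets (12) were not used.

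Groups and numbers came from the sample titles. The 67 spike-in entries of 21301 were kept out. Rounded counts were fitted with edgeR 4.0.16 in R 4.3.3 (filterByExpr with group, minimum count 10; TMM; glmQLFit, robust; glmQLFTest; no covariate) and Benjamini-Hochberg adjustment over 2501 genes. SEs were derived from the coefficient and F statistic. DESeq2 1.42.0 was an alternative, beside other scalings, filters, left-out libraries and a replicate block. Leave-one-out fits kept the 2501 genes. Intervals and limits of 3 counts cover counting error only.

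The genes, lists and alternatives were chosen with earlier results of these data known. Every tested member is named. Members outside the filter with counts in at least 4 libraries were eligible, and cxcr1, ifnphi1, ifnphi2, il12ba and il12bb were added after their values were seen. Up to 3 genes per pathway list had the smallest p past the threshold. The genes tnip2, traf3, irak1, ikbkg, irf2, psmb8a, stat4, ackr3b, tgfb3 and single cell type markers were added after their values were seen. Sequences and a planned count of promoter motifs are not analysed here. List genes not found in the table are not analysed here.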

Additional observations from a re-analysis of the deposited data

Results flagged for a closer look

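Among 48 groups of 4 libraries (24 genes in 2 groups), 6 held a library whose gap to the nearest of the others was beyond Dixon's 95% limit, a set share of the group's range. For independent, normally distributed values this limit flags about 1 group in 20. Levels here move in steps and the genes share libraries, so that rate is no baseline for these groups. In overexpression library 1, csf3a stood at 33.3 CPM against 1.65 to 3.06 CPM in the other overexpression libraries, il6 at 35.6 CPM against 3.32 to 6.12 CPM, and tnfrsf9a at 112.1 CPM against 55.0 to 64.4 CPM. In control 2, ccl34b.4 stood at 211.2 CPM against 512.4 to 520.2 CPM in the other controls, il13ra1 at 120.7 CPM against 162.7 to 166.6 CPM, and tnfrsf11a at 60.3 CPM against 91.2 to 95.9 CPM. Control 2 has the fewest counts, and there ccl34b.4 rests on 7 corrected counts, il13ra1 on 4 and tnfrsf11a on 2.

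Overexpression library 1 was the highest of the 4 overexpression libraries in 12 of the 24 genes, against 25.9% of all genes tested. It held more than 3 times the level of each other overexpression library in 2 of the 24 genes, il6 and csf3a, and in 5 of all 2501 genes. These counts were chosen after the values were seen and carry no test. Overexpression library 1 and control 2 are the libraries absent from the authors' deposited comparison.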

How the results depend on the processing

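The count of cytokine and receptor genes called lower was 22 of 24 and lay between 20 and 23 when any single library was left out, with 0 higher in each of these fits. Over all genes, leaving out a library gave 653 to 783 higher and 621 to 773 lower. With the replicate number as a block, 22 were called lower, beside 652 lower and 696 higher over all genes. The correlations of deviations between same-numbered libraries were -0.04 to 0.02. The block changed no call among the 24 genes. No gene of the 24 was called higher under any alternative. With library totals alone 19 were lower and cxcr3.2 turned to 0.0177; over all genes 479 were then lower, and the median of all genes moved to 0.38. With libraries scaled on cardiomyocyte markers, all 24 were lower, over all genes 136 were higher and 1369 lower, and the median of all genes moved to -1.01. The medians of the tested ligands and receptors were then -3.64 and -2.68. With no filter 18 of 42 ligands were lower, beside 7.66% of all genes. With a minimum count of 20 all 17 members tested were lower, beside 517 lower and 465 higher of all 1450 genes. Of the single-gene values under the alternatives, 385 kept direction and call, 9 lost the call, 6 gained it and 1 turned round. The cause of these shifts was not tested. Levels in control 2 move in steps of 30.2 CPM, and the overexpression levels of csf3a and il6 rest on 1 to 3 counts in 3 libraries, which limits the precision of these fold changes.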
